A study of Mus musculus with 9 samples.

Results

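The tumour necrosis factor (TNF) receptor and ligand superfamily was followed in bulk kidney RNA of mice. Its members were taken by symbol, as every row of the expression table named Tnfrsf or Tnfsf followed by a number, plus Tnf, which gave 33 of 26139 rows. They comprised 20 receptors, 12 ligands and 1 noncoding RNA, Tnfsf13os. The 24 that reached 0.1 FPKM (sequenced fragments scaled to gene length and library total) in at least 3 of the 9 libraries are described, 15 receptors, 8 ligands and the noncoding RNA, and no group alone carried any of them past that level. Every group had 3 libraries. GQYS mice carried the Itgam-IRES-hCD89 knock-in, and for 5 months a herbal preparation of Chinese medicine, Gui-qi-yi-shen granules, was given to them by gavage every day. IgAN mice carried the same knock-in and received saline by gavage, as a model of IgA nephropathy, in which IgA is deposited in the glomeruli. WT mice were C57/BL6 without the knock-in and received saline by gavage. The knock-in places human CD89, an Fc receptor for IgA, behind an internal ribosome entry site at Itgam, the myeloid gene of CD11b, so cells that use this locus carry it in both the GQYS and IgAN groups. The sources used here give neither ages nor sexes. Whether replicate libraries are separate mice is not stated in the labels, and each p-value measures only the spread among libraries, which may be technical.

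The ligands of this superfamily are mostly membrane proteins that act as trimers and can be shed, and they cluster their receptors on the target cell. Receptors with a death domain, such as Tnfrsf1a, Tnfrsf21, Tnfrsf25, Tnfrsf10b and Fas, can start inflammatory signalling or cell death, whereas receptors without one, such as Tnfrsf1b and Tnfrsf12a, recruit TRAF adaptors and signal through NF-kB and MAP kinases. In the kidney, Tnfrsf12a, also called Fn14, and its ligand Tnfsf12, also called TWEAK, are known for their part in tubular injury, and Tnfsf13 (APRIL) and Tnfsf13b (BAFF) are known as B cell survival factors with a part in IgA production.

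The libraries held 30564947 to 38161564 reads assigned to genes, recovered from the steps of the deposited values. Of the 12 kidney markers, 0 were at 0 throughout, and their summed level was 42778 to 53098 FPKM in GQYS, 44172 to 60391 in IgAN and 40188 to 68856 in WT. IgAN replicate 1 and WT replicate 1 stood apart from the other libraries. The first had 1288 FPKM of tubular injury markers in sum, against 358 to 619 in the other 8 libraries, and the second had 18.6% of its reads in mitochondrial genes, against 7.81% to 13.3%. WT replicate 3 held more urothelial markers, at 14.6 FPKM in sum against 0.596 to 5.38. Of 5 fat markers, Adipoq, Cfd, Plin1 and Lep were highest there too, Cfd at 11.4 FPKM against at most 0.158 elsewhere. The fat marker Fabp4 was highest in WT replicate 1, at 81.4 FPKM against 67.5 in WT replicate 3. IgAN replicate 1 was the highest of the 9 libraries for 11 of the 24 members (45.8%) and for 18.6% of 15821 genes that reached 0.1 FPKM in 3 libraries. In bulk tissue, fewer cells of a type and less RNA per cell cannot be told apart.

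The 3 receptors of the best-known TNF and TWEAK pathways that were measured well here, Tnfrsf12a, Tnfrsf1a and Tnfrsf1b, are shown with the 250 bases before their RefSeq start in mouse build GRCm38.p6. They are 3 of the 6 described members with higher FPKM in every IgAN library than in every WT library. The others, Tnfrsf21, Tnfrsf4 and Tnfsf13, are not printed. The authors' build was GRCm39, so no position of theirs is used. Tnfrsf12a lies at chr17:23677450-23677699 on the minus strand, Tnfrsf1a at chr6:125349473-125349722 on the plus strand and Tnfrsf1b at chr4:145246871-145247120 on the minus strand. Capitals mark the GC box GGGCGG or its reverse CCGCCC, the letters bound by Sp1-type factors.
Tnfrsf12a: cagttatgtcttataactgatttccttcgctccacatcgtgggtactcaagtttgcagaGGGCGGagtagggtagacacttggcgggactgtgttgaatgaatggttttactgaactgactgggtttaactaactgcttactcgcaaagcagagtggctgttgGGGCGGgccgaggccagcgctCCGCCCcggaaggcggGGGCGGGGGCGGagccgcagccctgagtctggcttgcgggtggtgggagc
Tnfrsf1a: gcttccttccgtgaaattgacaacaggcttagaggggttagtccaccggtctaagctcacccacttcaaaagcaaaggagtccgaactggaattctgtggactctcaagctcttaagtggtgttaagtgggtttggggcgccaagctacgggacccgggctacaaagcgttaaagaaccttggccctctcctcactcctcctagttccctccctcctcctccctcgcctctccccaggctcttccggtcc
Tnfrsf1b: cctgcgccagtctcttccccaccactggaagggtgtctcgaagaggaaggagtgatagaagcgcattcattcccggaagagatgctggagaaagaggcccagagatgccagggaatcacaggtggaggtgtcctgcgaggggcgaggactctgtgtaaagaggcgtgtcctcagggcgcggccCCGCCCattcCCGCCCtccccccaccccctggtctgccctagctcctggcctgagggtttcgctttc
The Tnfrsf12a window held 5 GC boxes, all within 191 bases of the start, Tnfrsf1b held 2 and Tnfrsf1a held 0. Of 32851 mouse promoters of the same length 32.7% held at least 1 on either strand and 1.93% held 5 or more. In the windows of Tnfrsf21 and Tnfrsf4, not printed, there were 1 and 0 GC boxes. The AP-1 motif TGANTCA, also searched on both strands, had 0 matches in all 5 windows and occurs in 6.75% of promoters of this length, so no match overlapped a GC box. The lack of a match says only that the letters are not in the window.

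Levels spanned 3 tiers. Averaged over the 9 libraries, Tnfrsf21, a death receptor, led at 60.0 FPKM, followed by Tnfrsf12a at 39.0 and Tnfrsf1a, the main TNF receptor of most cells, at 24.1. Tnfsf10 (TRAIL), a death ligand, was the highest ligand at 10.7 FPKM and Tnfsf12 came next at 4.10 FPKM. Tnfrsf1b, the TNF receptor of leukocytes and endothelium, averaged 1.40 FPKM and Tnfrsf25, the death receptor for Tnfsf15, 1.37 FPKM. The other 17 members were under 1 FPKM. In this order only 2 neighbouring pairs had ranges over libraries that did not overlap: Tnfrsf1a, whose lowest library was at 17.8 FPKM, stood above Tnfsf10, whose highest was at 15.6, and Tnfsf12, lowest at 2.33, stood above Tnfrsf1b, highest at 2.16.

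The read counts behind the 17 members under 1 FPKM differed widely, from 109 to 241 per library for Tnfrsf11a down to 0 to 11 for Tnfrsf18. Their means ran from 0.738 FPKM for Tnfsf13b, 0.737 for Tnfrsf10b, the mouse TRAIL death receptor, and 0.719 for Tnfrsf14, the receptor of Tnfsf14 (LIGHT), down to 0.0952 for Tnfrsf11b, the osteoprotegerin decoy. Tnf itself, the founding cytokine, averaged 0.137 FPKM, and between 1 and 15 reads were assigned to it in each library. Over the 9 libraries together 9 of the 24 members had under 300 reads, all of them among these 17, and 4 had under 100. Just inside the 0.1 FPKM rule were Tnfrsf11b and Tnfrsf18 (GITR, a T cell receptor of costimulation), each at that level in 4 libraries. Just outside were Tnfsf4 (OX40 ligand), which reached it in 1 library at 0.109 FPKM, and Tnfrsf19, whose highest library was at 0.0974 FPKM. The other 7 not described were Tnfrsf13c, the BAFF receptor, Tnfrsf17, the plasma cell receptor BCMA, Tnfrsf8, Tnfrsf9, Tnfsf8, Tnfsf11, the RANK ligand, and Tnfsf18.

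**Figure D1:**
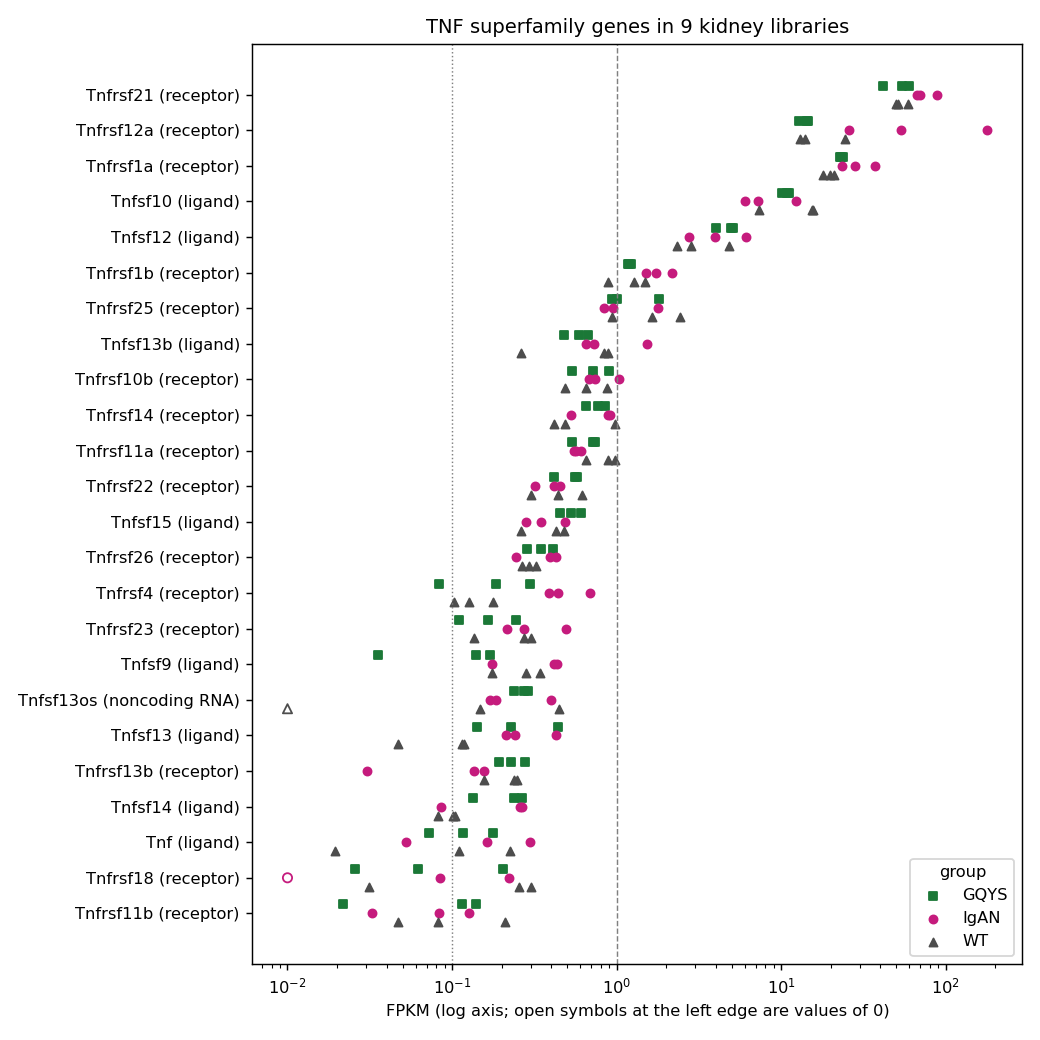
FPKM of the 24 described superfamily members in the 9 libraries (log axis), ordered by their mean, with each point a library and open symbols standing for values of 0. The vertical lines mark 0.1 and 1 FPKM, and Tnfrsf21, Tnfrsf12a and Tnfrsf1a sit to the right of all ligands on average, at 60.0, 39.0 and 24.1 FPKM.

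Kidneys of knock-in mice on saline were first compared with those of wild-type mice. Tnfrsf12a, Tnfrsf1a, Tnfrsf1b and Tnfrsf21 were higher in each of the 3 IgAN libraries than in each of the 3 WT libraries, by 1.41 to 5.05 times on average, as were 9.18% of all tested genes, but 0 of the 7 members tested passed limma at a Benjamini-Hochberg adjusted p of 0.05. The test covered 11617 genes with at least 1 FPKM in at least 3 libraries, on log2(FPKM + 1), on which changes of low genes come out smaller than they are, and 0.353% of them passed in this comparison. Those 4 of the 7 had an unadjusted p under 0.05, as had 10.3% of all tested genes, and voom on the recovered reads also passed 0 of 7, with 4 at an unadjusted p under 0.05. The median log2 difference of the 7 was 0.34, against 0.02 over all tested genes. In the same fit with the filter lowered to 0.1 FPKM, 0 of the 24 described members passed by limma or voom, where 0.284% of 15821 genes did by limma. At an unadjusted p under 0.05 there were 7 of the 24 by limma and 7 by voom, against 10.5% of all genes by limma. The median log2 difference of the 24 was 0.09, against 0.0089 over all genes with this filter.

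Tnfrsf12a had the widest difference. Its level was 179, 25.7 and 53.5 FPKM in IgAN replicates 1 to 3, against 24.3, 13.9 and 12.97 FPKM in WT replicates 1 to 3. All 3 IgAN libraries were higher, though IgAN replicate 2 lay only just above WT replicate 1, and IgAN replicate 1 was 4.53 times the mean of the other IgAN libraries. The means were 86.2 ± 81.9 FPKM in IgAN and 17.1 ± 6.26 in WT (SD, n = 3 each), with a log2 difference of 1.88 ± 0.55 (SE; limma adjusted p = 0.231). It was 1.13 without IgAN replicate 1 (limma adjusted p = 0.348). Library quality weights and the mitochondrial share as a covariate each brought it past the threshold, at 1.84 and 2.40 (limma adjusted p = 0.0182 and 0.0384), while leaving out 1 library at a time gave adjusted p between 0.0805 and 0.472. Weights and covariate passed 655 and 636 of all 11617 tested genes, against 41 in the main fit.

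The death domain receptors followed. Tnfrsf1a was at 37.0, 23.4 and 28.2 FPKM in IgAN, against 17.8, 19.8 and 21.0 FPKM in WT. Each IgAN library was above each WT library, and the log2 difference was 0.55 ± 0.15 (SE; limma adjusted p = 0.192, and 0.0316 with library weights, which passed 655 genes in all against 41). Tnfrsf21 was at 88.7, 69.5 and 66.9 FPKM in IgAN and 49.8, 50.97 and 58.8 FPKM in WT. Its ranges were apart as well, with a log2 difference of 0.48 ± 0.16 (SE; limma adjusted p = 0.293). Tnfrsf25 overlapped between the groups, with 1.19 ± 0.513 FPKM in IgAN and 1.67 ± 0.739 in WT (SD, n = 3 each; limma adjusted p = 0.779). Tnfrsf10b did too, with 0.820 ± 0.192 FPKM in IgAN and 0.671 ± 0.195 in WT (limma adjusted p = 0.795).

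Tnfrsf1b and Tnfrsf4 are receptors without a death domain that leukocytes use. Tnfrsf1b was at 2.16, 1.502 and 1.74 FPKM in IgAN, against 1.28, 1.49 and 0.886 FPKM in WT. The lowest IgAN library and the highest WT library nearly met, and the log2 difference was 0.34 ± 0.13 (SE; limma adjusted p = 0.386). Tnfrsf4 (OX40), a costimulatory receptor of activated T cells, was at 0.689, 0.386 and 0.443 FPKM in IgAN, from 27, 17 and 19 reads, and at 0.177, 0.102 and 0.126 FPKM in WT, from 8, 5 and 5 reads. Every IgAN library was more than 2 times as high as every WT library, and Tnfrsf4 had the smallest p of the 24 members (low-filter limma log2 difference 0.40 ± 0.09 SE, adjusted p = 0.127). It passed only with library weights and with the mitochondrial covariate (limma adjusted p = 0.0483 and 0.0453). These passed 234 and 364 of all 15821 genes, against 45 in the main fit. Its ligand Tnfsf4 was at 0 in all 3 WT libraries and in IgAN replicates 1 and 3, and was assigned 6 reads in IgAN replicate 2.

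Marker sums are given beside these receptors. The neutrophil and tubular injury sums were higher in IgAN than in WT, and the other sums in this paragraph overlapped. The summed level of 10 neutrophil markers, of which S100a9 was at 13.5 to 16.7 FPKM in IgAN and 0.679 to 1.80 in WT, was 27.6 to 35.3 FPKM in IgAN and 1.44 to 3.87 in WT, with ranges apart for 6 of the 10. The 9 macrophage markers summed to 114 to 177 FPKM in IgAN and 63.7 to 148 in WT, and the 8 measured T and NK cell markers to 2.96 to 4.28 FPKM in IgAN and 2.04 to 5.47 in WT, both overlapping. The 8 tubular injury markers summed to 506 to 1288 FPKM in IgAN and 387 to 410 in WT, with ranges apart for 5 of them. Over 15821 genes, ranges were apart and higher in IgAN than in WT for 8.53%, and apart and lower for 5.87%. Endothelial markers summed to 69.7 to 85.4 FPKM in IgAN and 76.4 to 93.1 in WT and fibroblast markers to 41.8 to 62.0 FPKM in IgAN and 32.6 to 43.8 in WT, both overlapping. Neither the neutrophil nor the macrophage list had a marker at 0 throughout. Their part in the receptor differences was not tested.

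**Figure D2:**
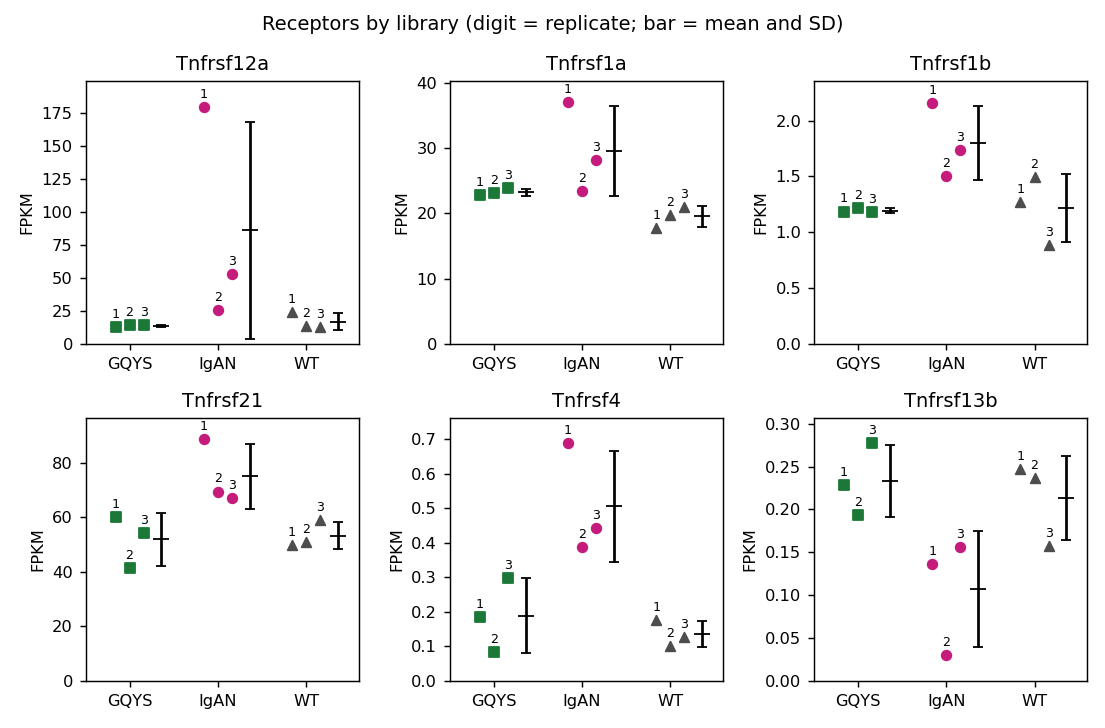
FPKM of 6 receptors in the GQYS, IgAN and WT libraries (symbols, with the replicate number), beside the group mean and SD (bars). The IgAN libraries of Tnfrsf12a lie at 25.7 to 179 FPKM against at most 24.3 in WT, and those of Tnfrsf13b at 0.0304 to 0.156 FPKM against at least 0.157 in WT.

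Tnfrsf13b and Tnfrsf11a, 2 of the 24 members, had every IgAN library below every WT library, as had 5.87% of 15821 genes. Tnfrsf13b (TACI), the receptor of B and plasma cells for Tnfsf13 and Tnfsf13b, was at 0.136, 0.0304 and 0.156 FPKM in IgAN (12, 3 and 15 reads), against 0.247, 0.237 and 0.157 FPKM in WT (25, 26 and 14 reads). The highest IgAN and the lowest WT library were nearly equal, and the difference did not pass (low-filter limma log2 difference -0.13 ± 0.07 SE, adjusted p = 0.531). The 6 measured B and plasma cell markers summed to 2.37 to 7.01 FPKM in IgAN and 9.13 to 29.3 in WT, with ranges apart for 4 of the 6, and their part in the Tnfrsf13b difference was not tested. Jchain, the joining chain of secreted IgA and IgM, gave most of that sum, at 1.23 to 4.76 FPKM in IgAN and 7.08 to 24.4 in WT. Tnfrsf11a (RANK), the receptor of osteoclast precursors that is also found in kidney, was at 0.549, 0.565 and 0.608 FPKM in IgAN, against 0.652, 0.972 and 0.887 FPKM in WT. Its ranges were apart, with a low-filter log2 difference of -0.22 ± 0.09 (SE; limma adjusted p = 0.419). Its ligand Tnfsf11 had 0 to 3 reads in any library and its decoy Tnfrsf11b overlapped between the groups (low-filter limma adjusted p = 0.912).

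Among the ligands, Tnfsf13 (APRIL) was the 1 member with ranges apart. It was at 0.428, 0.243 and 0.214 FPKM in IgAN (22, 14 and 12 reads), against 0.118, 0.0468 and 0.116 FPKM in WT (7, 3 and 6 reads). The IgAN libraries were all higher, with a low-filter log2 difference of 0.24 ± 0.10 (SE; limma adjusted p = 0.390). Tnfsf13, Tnfsf12 and the antisense Tnfsf13os overlap on chromosome 11, the strand setting of the counting is not given, and so reads of the 3 cannot be told apart with certainty. The read-through gene Tnfsfm13, which spans the same stretch, was listed at 0 in all libraries. Tnfsf12, the ligand of Tnfrsf12a, was at 6.16, 2.77 and 3.99 FPKM in IgAN and 4.81, 2.83 and 2.33 FPKM in WT. Both groups covered much the same range (limma log2 difference 0.29 ± 0.25 SE, adjusted p = 0.780).

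Tnfsf10, the TRAIL ligand, was at 6.02, 12.3 and 7.21 FPKM in IgAN, against 7.36, 15.6 and 15.5 FPKM in WT. WT replicate 1 and IgAN replicate 2 lay inside the other group's range, and the log2 difference of -0.53 ± 0.29 did not pass (SE; limma adjusted p = 0.596). Tnfsf10 passed only under library weights and with the mitochondrial covariate, which passed 655 and 636 genes in all, against 41 in the main fit. Tnf had 0.297, 0.0529 and 0.163 FPKM in IgAN and 0.224, 0.111 and 0.0196 FPKM in WT. The groups overlapped throughout, and the difference of the means, 0.0528 FPKM, had a two-sided exact permutation p of 0.6, where no p under 0.1 can be reached with 3 libraries a group. The sign of this difference turned without IgAN replicate 1, to -0.0102 FPKM. Tnfsf13b was at 1.54, 0.651 and 0.725 FPKM in IgAN and 0.892, 0.834 and 0.261 FPKM in WT, which overlapped (low-filter limma adjusted p = 0.719).

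In all, 6 of the 24 had IgAN libraries that were all above the WT libraries, where 8.53% of 15821 genes did, and 2 had them all below, where 5.87% did. Without IgAN replicate 1 the counts were 8 and 2, against 12% and 10% of all genes, and Tnfrsf26 and Tnfsf14 were the members added to the higher ones. Without IgAN replicate 1 and WT replicate 1 together they were 8 and 3, where 20.8% and 25.9% of all genes were so. The remaining described members, Tnfrsf14, Tnfrsf18, Tnfrsf22, Tnfrsf23, Tnfrsf26, Tnfsf9, Tnfsf14, Tnfsf15 and Tnfsf13os, overlapped between IgAN and WT. Among these, Tnfrsf22 and Tnfrsf23 are known in mouse as decoy receptors for TRAIL. They and Tnfrsf26 are neighbours of the same family on chromosome 7, whether the counting split reads between them is not given, and an antisense gene listed at 0 to 0.0801 FPKM overlaps all 3.

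**Figure D3:**
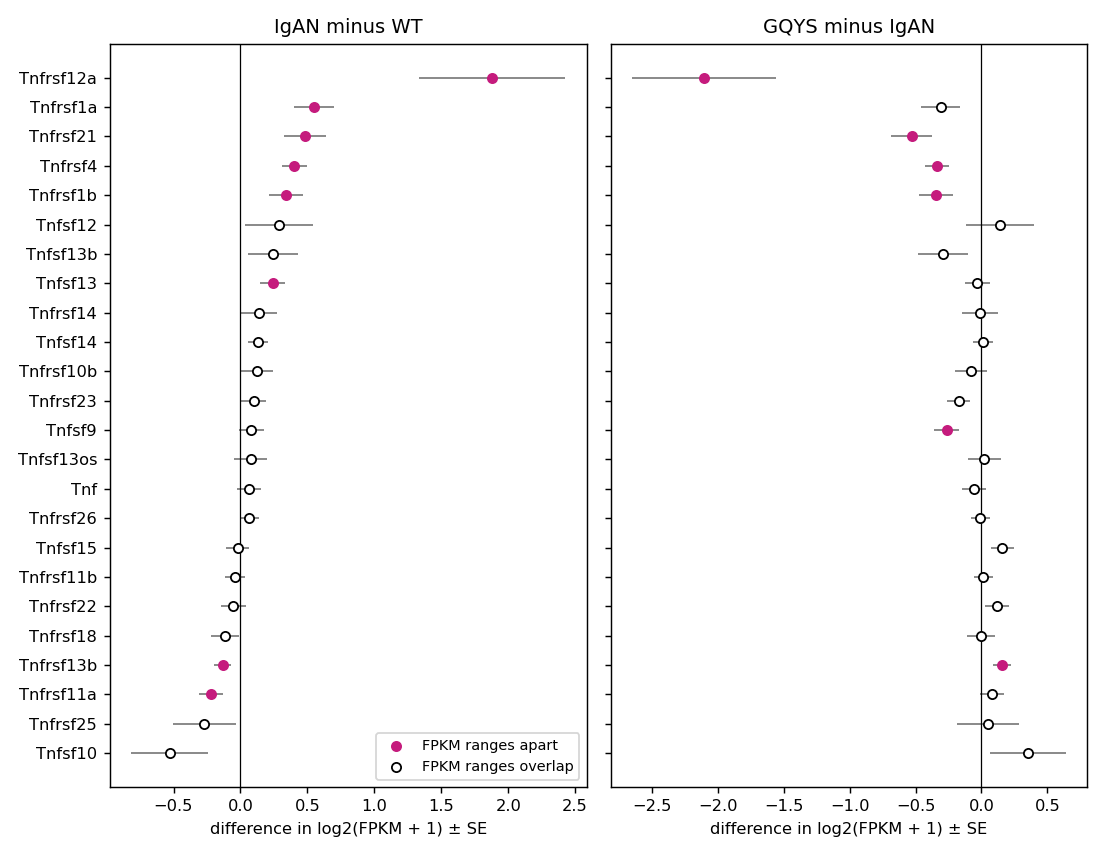
Differences in log2(FPKM + 1) with SE from limma for the 24 members, IgAN minus WT on the left and GQYS minus IgAN on the right; filled points have FPKM ranges that do not overlap between the groups. Tnfrsf12a lies farthest out in both, at 1.88 and -2.10, and the comparisons share the IgAN libraries.

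Kidneys of knock-in mice given the granules were then compared with those of knock-in mice on saline. Tnfrsf12a, Tnfrsf1b, Tnfrsf21, Tnfrsf4 and Tnfsf9 were lower in all 3 GQYS libraries than in all 3 IgAN libraries, and Tnfrsf13b was higher. Of 15821 genes at the lower filter of 0.1 FPKM, 8.5% were lower and 11% higher in this way. Again 0 of the 7 members tested passed limma, where 0.198% of all tested genes did. At an unadjusted p under 0.05 there were 3 of 7, against 10.4% of all tested genes, and voom passed 0 of 7 with the unadjusted count also 3. With the low filter 0 of 24 passed by limma and by voom, against 0.202% of all genes by limma, and 6 of 24 had an unadjusted p under 0.05 in either tool, against 11% by limma. The median log2 difference of the 7 was -0.31, against 0.01 for all tested genes. Over the 24 members it was -0.0082, against 0.015 for all genes with the low filter. This comparison uses the same IgAN libraries as the one before, so its values are not independent of it.

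Tnfrsf12a was at 12.8, 14.3 and 14.6 FPKM in GQYS, against 179, 25.7 and 53.5 FPKM in IgAN. The GQYS libraries lay within 2 FPKM of each other and under every IgAN library. The means were 13.9 ± 0.955 FPKM in GQYS and 86.2 ± 81.9 in IgAN (SD, n = 3 each), a log2 difference of -2.10 ± 0.55 (SE; limma adjusted p = 0.191). It was -1.36 without IgAN replicate 1 (limma adjusted p = 0.292). It passed when WT replicate 1 was left out as well (limma adjusted p = 0.0479), with library weights (-1.84, adjusted p = 0.0210) and with the mitochondrial covariate (-2.51, adjusted p = 0.0386). In that order these passed 63, 404 and 308 of all tested genes, against 23 in the main fit. The ligand Tnfsf12 was at 5.09, 3.99 and 4.94 FPKM in GQYS and 6.16, 2.77 and 3.99 FPKM in IgAN, with overlapping ranges (limma adjusted p = 0.940).

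Tnfrsf1b was at 1.19, 1.22 and 1.18 FPKM in GQYS, against 2.16, 1.502 and 1.74 FPKM in IgAN. All GQYS libraries were lower and close together, with a log2 difference of -0.34 ± 0.13 (SE; limma adjusted p = 0.396). Tnfrsf21 was at 60.2, 41.3 and 54.1 FPKM in GQYS and 88.7, 69.5 and 66.9 FPKM in IgAN. Its ranges were apart, with a log2 difference of -0.53 ± 0.16 (SE; limma adjusted p = 0.261). Tnfrsf1a was at 22.9, 23.1 and 23.9 FPKM in GQYS and 37.0, 23.4 and 28.2 FPKM in IgAN. GQYS replicate 3 lay above IgAN replicate 2, and the log2 difference of -0.31 ± 0.15 did not pass (SE; limma adjusted p = 0.540).

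Tnfrsf4 was at 0.186, 0.0828 and 0.299 FPKM in GQYS, from 8, 4 and 12 reads, against 0.689, 0.386 and 0.443 FPKM in IgAN, from 27, 17 and 19 reads. The low-filter log2 difference was -0.34 ± 0.09 (SE; limma adjusted p = 0.198). Tnfsf9, a costimulatory ligand of antigen-presenting cells, was at 0.139, 0.0353 and 0.170 FPKM in GQYS (7, 2 and 8 reads), against 0.435, 0.175 and 0.418 FPKM in IgAN (20, 9 and 21 reads). GQYS replicate 3 and IgAN replicate 2 were nearly equal, and the low-filter log2 difference was -0.26 ± 0.09 (SE; limma adjusted p = 0.328). Its receptor Tnfrsf9 had at most 5 reads in any library. Tnfrsf13b was at 0.228, 0.194 and 0.277 FPKM in GQYS (22, 21 and 25 reads), against 0.136, 0.0304 and 0.156 FPKM in IgAN (12, 3 and 15 reads). Each GQYS library was higher, with a low-filter log2 difference of 0.16 ± 0.07 (SE; limma adjusted p = 0.412).

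The marker sums are given beside these values. Over 15821 genes, ranges were apart and lower in GQYS than in IgAN for 8.5%, and apart and higher for 11%. The neutrophil markers summed to 2.57 to 3.85 FPKM in GQYS and 27.6 to 35.3 in IgAN, with ranges apart for 6 of 10. The macrophage markers summed to 76.1 to 97.5 FPKM in GQYS and 114 to 177 in IgAN, with ranges apart for 6 of 9, and the B and plasma cell markers summed to 9.45 to 13.2 FPKM in GQYS and 2.37 to 7.01 in IgAN, with ranges apart for 2 of 6. Endothelial markers were higher in sum, at 97.9 to 109 FPKM in GQYS and 69.7 to 85.4 in IgAN, and fibroblast markers lower, at 35.9 to 41.7 FPKM in GQYS and 41.8 to 62.0 in IgAN, each with ranges apart for 2 of 6. The T and NK cell markers overlapped, at 2.53 to 4.35 FPKM in GQYS and 2.96 to 4.28 in IgAN. The injury markers summed to 358 to 540 FPKM in GQYS and 506 to 1288 in IgAN, sums that overlap, while Lcn2, Krt20, Clu, Vim and Cdkn1a, 5 of the 8, were lower in every GQYS library than in every IgAN library. The part of these markers in the receptor values was not tested.

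The ligands of Tnfrsf13b had GQYS values within the IgAN ranges or overlapping them. Tnfsf13 was at 0.142, 0.442 and 0.228 FPKM in GQYS and 0.428, 0.243 and 0.214 FPKM in IgAN (low-filter limma adjusted p = 0.963). Tnfsf13b was at 0.482, 0.593 and 0.668 FPKM in GQYS and 1.54, 0.651 and 0.725 FPKM in IgAN (low-filter limma adjusted p = 0.642). Tnfsf10 was at 10.9, 11.1 and 10.1 FPKM in GQYS and 6.02, 12.3 and 7.21 FPKM in IgAN, with the GQYS libraries inside the IgAN range (limma adjusted p = 0.787). Tnfrsf11a was at 0.537, 0.723 and 0.737 FPKM in GQYS and 0.549, 0.565 and 0.608 FPKM in IgAN (low-filter limma adjusted p = 0.842). Tnf was at 0.0722, 0.177 and 0.116 FPKM in GQYS and 0.297, 0.0529 and 0.163 FPKM in IgAN, a difference of -0.0493 FPKM (two-sided exact permutation p = 0.7), whose sign turned to 0.0137 without IgAN replicate 1.

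Over the 24 members, 5 had GQYS libraries all below the IgAN libraries and 1 had them all above, where 8.5% and 11% of 15821 genes did. Without IgAN replicate 1 the counts were 5 and 2, against 11.8% and 17% of all genes, with Tnfsf12 joining the higher ones. Leaving out IgAN replicate 2 instead gave 8 and 5, against 13.5% and 18.5% of all genes.

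Knock-in mice given the granules were last set against wild-type mice. Of the 7 tested members 0 passed limma or voom, with 0 at an unadjusted p under 0.05 in both, and 0% of all genes passed (4.43% at an unadjusted p under 0.05). With the low filter 0 of 24 passed in both tools, and 0 by limma and 1 by voom had an unadjusted p under 0.05, against 4.73% of all genes by limma. Tnfrsf12a averaged 13.9 ± 0.955 FPKM in GQYS and 17.1 ± 6.26 in WT (SD, n = 3 each; limma log2 difference -0.23 ± 0.55 SE, adjusted p = 0.999), and without WT replicate 1 the log2 difference was 0.043. Tnfrsf1a was higher in every GQYS library, at 22.9 to 23.9 FPKM against 17.8 to 21.0 in WT (limma log2 difference 0.24 ± 0.15 SE, adjusted p = 0.999). Tnfsf13 and Tnfsf14 were higher in all GQYS libraries too, Tnfsf14 at 0.134 to 0.266 FPKM against 0.0824 to 0.104 in WT, and Tnfsf9 was lower, at 0.0353 to 0.170 FPKM against 0.174 to 0.341 in WT. These are 3 of 24 higher and 1 of 24 lower, where 7.14% and 2.85% of all genes had ranges apart in those directions. Tnf differed by 0.00352 FPKM (two-sided exact permutation p = 0.9).

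Tnfrsf12a was followed further across libraries. The genes most like it, by Pearson r of log2(FPKM + 1) over the 9 libraries among 11042 tested genes with other than predicted or clone names, were Tpm4 (0.985) and Tpm1 (0.983), tropomyosins of the actin cytoskeleton, Vim (0.981), the intermediate filament vimentin, Tuba1a (0.980), an alpha-tubulin, and Tgfbi (0.972), a secreted matrix protein. Over 8 libraries, leaving out IgAN replicate 1, the r values were 0.947, 0.979, 0.940, 0.924 and 0.898 in that order. Of the other tested members, Tnfrsf1b had an r of 0.88 with Tnfrsf12a, Tnfrsf1a 0.83, Tnfrsf21 0.78, Tnfsf12 0.49, Tnfrsf25 0.17 and Tnfsf10 -0.79. Over the 8 libraries without IgAN replicate 1 these became 0.75, 0.47, 0.50, 0.08, -0.17 and -0.69. The values share libraries and groups and serve as a description.

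Vim is also 1 of the 8 tubular injury markers whose sum is plotted beside Tnfrsf12a. The others are Havcr1 (KIM-1), Lcn2 (NGAL), Krt20, Spp1, Sox9, Clu and Cdkn1a. IgAN replicate 1 stood out in both measures, with Havcr1 at 43.8 FPKM against 1.33 and 1.79 in IgAN replicates 2 and 3, and Krt20 at 14.2 FPKM against 0.194 and 0.230. Spp1 and Clu gave most of the sum in all 9 libraries, at 257 to 883 and 56.9 to 244 FPKM. GQYS replicate 2 had a sum of 540 FPKM, of which 387 was Spp1, between the 506 and 619 FPKM of IgAN replicates 2 and 3, but its Havcr1, Lcn2, Krt20, Clu, Vim and Cdkn1a were each below both. Whether injury accounts for the receptor's level was not tested.

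**Figure D4:**
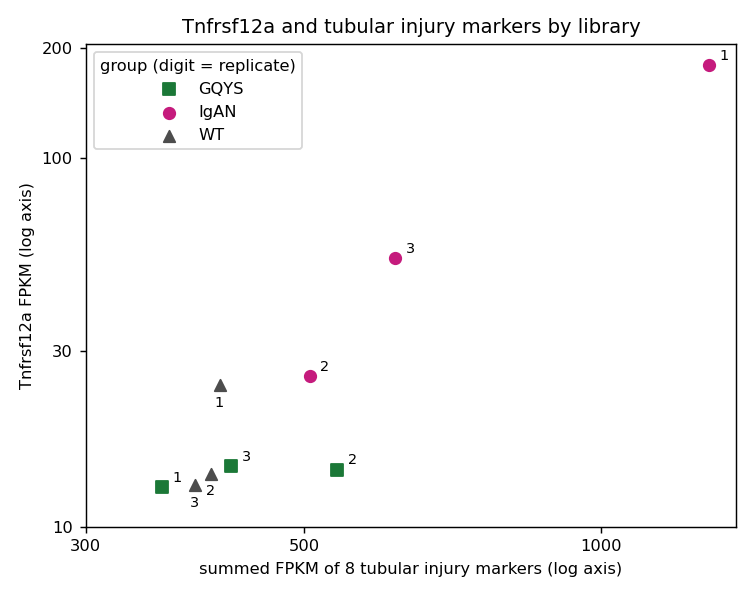
Tnfrsf12a FPKM against the summed FPKM of 8 tubular injury markers in the 9 libraries, both on log axes, with the replicate number beside each symbol. IgAN replicate 1 is at the upper right with 179 FPKM of Tnfrsf12a and 1288 FPKM of injury markers, and the other 8 libraries have 358 to 619 FPKM of markers, most of it Spp1 and Clu.

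Members of the superfamily that carry other symbols were measured beside these. Of 14 such genes 4 were tested (Cd40, Fas, Ltb and Ltbr) and 0 passed in any comparison by limma. At an unadjusted limma p under 0.05 there were 1, 0 and 0 in the IgAN to WT, GQYS to IgAN and GQYS to WT comparisons. Of all tested genes 10.3%, 10.4% and 4.43% were under that p. Fas, the death receptor of Fas ligand, was at 4.26 ± 0.322 FPKM in IgAN and 3.28 ± 0.405 in WT (SD, n = 3 each, limma adjusted p = 0.344). Its ranges were apart, as were those of 9.18% of all tested genes in that direction. Ltbr, the lymphotoxin beta receptor, averaged between Tnfrsf12a and Tnfrsf1a over the 9 libraries, at 30.2 FPKM, with 29.2 ± 2.88 FPKM in GQYS, 32.5 ± 4.70 in IgAN and 28.8 ± 1.52 in WT. Cd70 was listed at 0 in all 9 libraries.

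Downstream of the receptors, 29 of 33 adaptor and kinase genes were tested and 0 passed by limma. In IgAN against WT 2 of the 29 had an unadjusted p under 0.05, both higher in IgAN, beside 10.3% of all tested genes in either direction. They were Birc3, a ubiquitin ligase of the TNF receptor complex, at 3.13 ± 0.428 FPKM in IgAN and 1.80 ± 0.470 in WT (SD, n = 3 each; limma adjusted p = 0.178), and Map3k14, the kinase NIK of the noncanonical NF-kB pathway, at 3.58 ± 0.862 FPKM in IgAN and 2.05 ± 0.220 in WT (limma adjusted p = 0.162). In GQYS against IgAN 2 of the 29 were higher (Fadd and Tab1) and 2 lower (Birc2 and Birc3) at that level, where 10.4% of all tested genes passed it in either direction. Fadd, the death domain adaptor, was at 5.51 ± 0.162 FPKM in GQYS and 3.82 ± 0.512 in IgAN (limma adjusted p = 0.268), and Birc3 was at 1.85 ± 0.329 FPKM in GQYS and 3.13 ± 0.428 in IgAN (limma adjusted p = 0.221). The list's median log2 difference was 0.06 in IgAN against WT and -0.01 in GQYS against IgAN, beside 0.02 and 0.01 for all tested genes. All 6 genes of ligand and receptor shedding were tested and 0 passed by limma, with 0 at an unadjusted p under 0.05 in each comparison. Adam17, the TNF converting enzyme, was at 8.21 ± 0.804 FPKM in IgAN and 7.81 ± 1.22 in WT.

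Genes known to be induced by TNF, and by other cytokines too, held calls where the receptors and ligands had none. Of 28 such genes 19 were tested, and 5 rose in IgAN against WT by limma, where 0.301% of all tested genes did: Ccl2, a monocyte chemoattractant, Icam1 and Vcam1, adhesion molecules, Csf1, a macrophage growth factor, and Cebpd, a transcription factor. The 5 also fell in GQYS against IgAN, where 0.164% of all tested genes fell, and the IgAN libraries are shared. Csf1 was at 7.12 ± 0.590 FPKM in IgAN and 2.53 ± 0.145 in WT (SD, n = 3 each; limma adjusted p = 0.00190), with 2.15 ± 0.340 FPKM in GQYS, and both of its calls held without each library in turn. Those of the other 4 ended without at least 1 library: in IgAN against WT the highest adjusted p was 0.137 for Ccl2, 0.102 for Icam1 and 0.0608 for Vcam1, each without IgAN replicate 3, and 0.0665 for Cebpd without WT replicate 2. In GQYS against IgAN it was 0.101 for Ccl2 and 0.0841 for Cebpd without GQYS replicate 3, 0.161 for Icam1 without GQYS replicate 2 and 0.113 for Vcam1 without GQYS replicate 1. Over the 9 libraries left out in turn, the IgAN to WT call ended 7 times for Ccl2, 3 for Icam1, 2 for Cebpd and 1 for Vcam1. The GQYS to IgAN call ended 6 times for Ccl2, 7 for Icam1, 3 for Cebpd and 6 for Vcam1. The median log2 differences of the 19 were 0.62 in IgAN against WT and -0.62 in GQYS against IgAN, beside 0.02 and 0.01 for all tested genes. At an unadjusted limma p under 0.05, 11 of the 19 were higher and 1 lower in IgAN than in WT. In GQYS against IgAN 1 was higher and 13 lower. Of all tested genes 10.3% and 10.4% were under that p, in either direction. The list was chosen with earlier results of these data known, so its calls are not independent evidence of TNF action.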

How the data were processed

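Per the labels' protocols, total kidney RNA was extracted with TRIzol and sequenced from VAHTS Universal V6 libraries. The authors deposited FPKM values for 26139 gene symbols in 9 libraries, which divide reads by gene length and library total. Per the submitters' processing notes, the build was GRCm39 and the tools were HISAT2, HTSeq, fastp, R 3.2.0 and DESeq2, with no roles named. The sources used here give neither the gene annotation nor the strand setting. Columns were matched to samples by library name.

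The values moved in steps that gave whole reads, within 0.03 reads, for all 26139 genes. Identical columns were not found, and chi-square per gene between replicates was 17.7 to 189. limma 3.58.1 in R 4.3.3 was fitted to log2(FPKM + 1) over all 9 libraries with a mean-variance trend, for genes at 1 FPKM or more (low filter: 0.1) in at least 3 libraries, with Benjamini-Hochberg adjustment over all of them at 0.05. The fit was tested on simulated data. Tnf was tested by exact permutation over 20 splits. Ranges apart means that no library of a group overlaps the other group's.

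The members, lists and tests were chosen with earlier results of these data known. All described members are named; values per library are given for Tnfrsf12a, Tnf, members past the threshold or with ranges apart in the first 2 comparisons and their partners, and up to 4 genes of each list with the smallest p were eligible. Alternatives covered pseudocount, filter, scaling, a replicate block, samples in the fit, library weights, trend, voom on the recovered reads, the mitochondrial share and each library left out. The counts of ranges apart under alternatives were added after seeing the data. Promoters are those of RefSeq, found for 25 of 33 members. Figures were drawn in Python 3.11.15 (matplotlib 3.10.9).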

Additional observations from a re-analysis of the deposited data

How the results depend on the processing

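Depth limits the members under 1 FPKM most, since 9 of the 24 had under 300 reads over all 9 libraries. Of the 7 members at 1 FPKM, library weights called 3 in IgAN against WT (Tnfrsf12a, Tnfrsf1a, Tnfsf10) and 1 in GQYS against IgAN (Tnfrsf12a), the mitochondrial covariate called 2 in each (Tnfrsf12a, Tnfsf10), and leaving out WT and IgAN replicate 1 called 1 in GQYS against IgAN (Tnfrsf12a). With the low filter, weights called 1 in each of these comparisons and the covariate 2 in IgAN against WT. Over all genes at 0.1 FPKM, weights called 234 and 252 in these comparisons and the covariate 364 and 186, against 45 and 32 in the main fit. Over all genes at 1 FPKM, weights called 655 and 404, the covariate 636 and 308 and the fit without both libraries 58 and 63, against 41 and 23. The other alternatives, with each library left out in turn (0 to 0), called 0 members, and so did all in GQYS against WT. The log2 difference of Tnfrsf12a was 1.84 and 2.40 in IgAN against WT under weights and covariate, and -1.84, -2.51 and -1.36 in GQYS against IgAN under weights, covariate and without WT and IgAN replicate 1. With single libraries left out it ran from 1.13 to 2.51, from -2.74 to -1.36 and, in GQYS against WT, from -0.38 to 0.043, the highest without WT replicate 1, and it was 0.043 without WT and IgAN replicate 1. The Tnf difference ran from -0.0102 to 0.112 FPKM in IgAN against WT, -0.108 to 0.0137 in GQYS against IgAN and -0.0457 to 0.0563 in GQYS against WT, where median-of-ratios scaling also turned its sign (-0.00326). With single libraries left out, 6 to 8 members were all higher and 2 to 3 all lower in IgAN than in WT. In GQYS against IgAN 5 to 8 were all lower and 1 to 5 all higher. The shares over all genes rose too where counted. Without IgAN replicate 1, 12% were all higher and 10% all lower in IgAN than in WT, against 8.53% and 5.87% with all libraries. Without IgAN replicate 2, 13.5% were all lower and 18.5% all higher in GQYS than in IgAN, against 8.5% and 11%. Median-of-ratios scaling left 5 members higher and 1 lower in IgAN, and the share over all genes was not counted there. The cause of these changes was not tested. With the replicate number as a block 0 members were called; Tnfrsf12a had adjusted p = 0.113 and 0.0989 in limma, and all genes called numbered 68 and 26. Deviations of same-numbered libraries correlated at -0.36 to 0.58, 6 of 9 pairs over 0.1, and 2 of 9 libraries correlated best with their own number, so the numbers were not taken as pairs.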
